A study of Rattus norvegicus with 28 samples.

Results

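The mRNA levels of the Wnt ligands, their receptors and the core of the Wnt signaling pathway were compared between a low and a high wall shear stress (WSS) region of the normal rat aorta. Members were the probe sets whose single gene symbol named a Wnt ligand, a Frizzled receptor, a co-receptor (Lrp5, Lrp6, Ror1, Ror2 or Ryk), an R-spondin, a receptor or E3 ligase of the R-spondin module, Porcn, Wls, or a Dishevelled, Axin, APC, beta-catenin, Naked or TCF/LEF gene. This gave 56 probe sets for 54 genes, out of 18644 probe sets and 17245 genes with 1 symbol on the array. A test was made for 44 of these genes, which had a mean level of at least 4 on the log2 scale, out of 11750 genes tested in all. Another 5 genes of the pathway's list, Wnt3a, Fzd3, Fzd7, Znrf3 and Tcf7l2, were not analysed here.

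The tissue came from untreated male Wistar rats, whose age is not given in the sources used here, and no group carried a genetic alteration. Pieces of the entire wall were cut from the greater curvature just beyond the left subclavian artery (high WSS) and from the distal lesser curvature (low WSS), with guidance from flow simulations made in other rats. Pieces from 5 animals were pooled per region, and 70 animals gave 14 pairs of pools, that is 14 high WSS and 14 low WSS pools with 1 array each. Flow was not altered in any animal, so WSS and position along the arch cannot be told apart, and a pool hides the spread between its 5 animals. Levels are log2 values that the authors obtained with RMA, which gives the probes of all arrays a common distribution before they are combined into probe sets. They are compared only within a probe set, because the brightness of a probe set also depends on its sequence.

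Wnt proteins are lipid-modified by the acyltransferase Porcn, carried to the cell surface by Wls, and bound there by Frizzled receptors together with Lrp5 or Lrp6, or with the tyrosine kinase-like receptors Ror1, Ror2 and Ryk. In the canonical branch, receptor engagement recruits Dishevelled and Axin, the complex of Axin and APC stops marking beta-catenin for destruction, and beta-catenin enters the nucleus to activate genes with TCF/LEF factors. Several of the genes switched on in this way, such as Axin2, Nkd1 and Rnf43, encode inhibitors of the same pathway, and in the vessel wall Wnt signals are known to act on smooth muscle growth, endothelial barrier formation and valve and artery calcification.

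The Wnt genes differed between the regions about as often as genes in general, and more of them were lower than higher in low WSS. Of 44 tested genes, 18 (40.9%) passed an adjusted p of 0.05 (limma with the pair as a block), against a background of 41.7% of all genes tested. In low WSS 6 genes (13.6%) were higher, against 19.7% of all genes, and 12 (27.3%) were lower, against 22% of all genes. The median log2 difference, low minus high WSS, was -0.0915 over the 44 genes and -0.00535 over all genes, and the median size of the difference was 0.136 and 0.114. Most differences were small: only Wnt2b and Nkd1 were over 0.5, and the smallest among the called genes was 0.12. Over all genes 2315 were higher and 2585 lower, which became 3157 and 1965 when each array was centred on its median, while the Wnt genes then gave 7 higher and 12 lower. In bulk tissue, fewer cells of a type and less RNA per cell cannot be told apart.

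The Bonferroni threshold (an unadjusted p under 3.74e-06) was passed by 3 of the 44 genes (6.82%), namely Nkd1, Lrp5 and Fzd2, against 6.91% of all genes, and all 3 were lower in low WSS, where the background was 3.9% lower and 3.01% higher. Nkd1, Fzd2, Lrp5 and Axin2 were lower in low WSS in all 14 pairs. These are 4 of 44 genes (9.09%), against 9.22% of all genes with 1 direction in all pairs, 4.83% lower and 4.38% higher. For 0 of the 44 genes did the levels of the 14 low WSS pools lie wholly outside those of the 14 high WSS pools, which was the case for 1.13% of all genes. Counted by probe set, 19 of 46 passed an adjusted p of 0.05, against 42.2% of all 13383 probe sets tested.

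**Figure D1:**
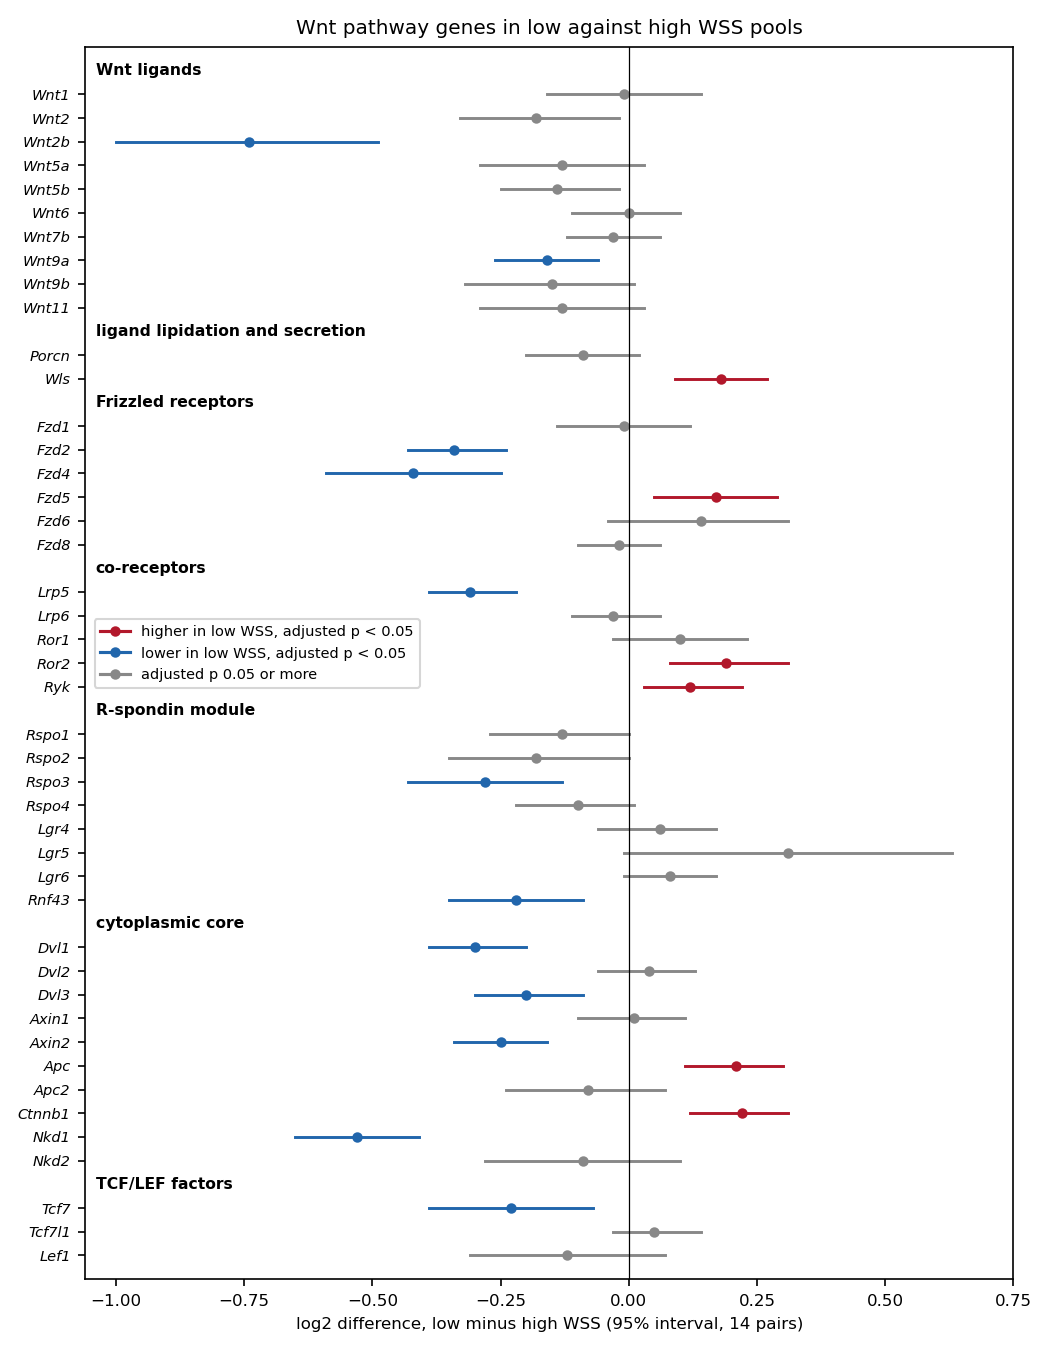
The log2 difference (low minus high WSS, x axis) of each of the 44 tested Wnt genes, grouped by role, with its 95% interval over 14 pairs; red marks genes higher and blue genes lower in low WSS at an adjusted p under 0.05, grey the others. The 12 blue genes are spread over every role but ligand secretion, and Wnt2b (-0.74) and Nkd1 (-0.53) lie farthest to the left.

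The cell makeup of the pools bears on these levels. None of 10 tested endothelial markers passed the test (limma, with 0 higher and 0 lower), and the list mean lay between 6.45 and 7.37 for high WSS pools and between 6.52 and 7.31 for low WSS pools. Of 9 contractile smooth muscle markers 4 were lower, with list means of 10.66 to 11.38 in high and 10.64 to 11.20 in low WSS. Of 10 fibroblast markers 4 were higher and 3 lower, of 9 myeloid markers 2 were higher and 1 lower, and of 7 lymphocyte markers 5 were under the level filter and the other 2 did not pass. Of 10 neuronal markers 6 were under the level filter, among them Chat and Slc18a3, and of the 4 tested 2 were higher and 1 lower. Of 6 tested cartilage markers 1 was higher and 1 lower. Of 7 tested cardiac and skeletal muscle markers 3 were higher and 2 lower, and of 5 Schwann cell markers 0 passed. Single markers differed by more than most Wnt genes and without overlap of the regions, each in 1 direction in all 14 pairs. These were the choline transporter gene Slc5a7 of cholinergic neurons (1.69, SE 0.10), the cartilage matrix gene Chad (-1.82, SE 0.20) and the adventitial matrix gene Dpt (-0.65, SE 0.07). They do not stand for their lists, where other called markers went the other way. Examples are the neuronal Dbh (-0.25, SE 0.07), the cartilage gene Acan (0.49, SE 0.07, in all 14 pairs) and the fibroblast gene Col3a1 (0.23, SE 0.04). Slc5a7 passed the level filter only through the low WSS pools, as its mean was 3.33 in high and 5.02 in low WSS. Fat varied most, since the mean of 13 adipocyte markers lay between 5.38 and 9.10 for high WSS pools and between 5.50 and 9.24 for low WSS pools. Its difference, low minus high WSS, was 1.89 to 3.40 in pairs 1, 2, 3 and 7 and -1.66 and -1.90 in pairs 4 and 6. When this mean was added to the fit as a covariate, 5 Wnt genes were higher and 13 lower (40.9%, against 40.5% of all genes). Every called Wnt gene other than Ryk kept its call in that fit. The part of the other cell types in the results was not tested, except that Tagln and Cnn1, which mark smooth muscle, were used as covariates. Then Apc, Ctnnb1, Dvl3, Fzd4, Fzd5, Rnf43, Ryk and Tcf7 no longer passed, and no called gene changed sign. Calls became fewer over all genes alike. In that fit 25.0% of the Wnt genes and 25.5% of all genes were called, where the main fit gave 40.9% and 41.7%. Tagln (0.06) and Cnn1 (0.00) were themselves not called between the regions. The differences of Rnf43 (-0.03), Ryk (0.04) and Fzd4 (-0.17) became smaller by over 1.5 times, whereas Tcf7 (-0.29), Fzd5 (0.18), Dvl3 (-0.16), Ctnnb1 (0.15) and Apc (0.14) moved less and had adjusted p-values of 0.0712 to 0.132.

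Nkd1, Axin2 and Rnf43, which are feedback inhibitors of beta-catenin signaling, and the factor gene Tcf7 were lower in low WSS. Nkd1, a Dishevelled-binding inhibitor, had levels of 8.28 to 8.98 (median 8.59) in the high WSS pools and 7.71 to 8.51 (median 8.04) in the low WSS pools. The regions overlapped, but 11 of 14 low WSS pools lay below every high WSS pool, and the low WSS pool was the lower one in each pair, by 0.19 to 1.07. The high WSS mean was 8.61 ± 0.21 (SD, n = 14) and the low WSS mean 8.08 ± 0.23, a log2 difference of -0.53 (SE 0.06, adjusted p = 2.01e-06) or 1.44-fold. Axin2, the Axin paralog that is itself a target of the pathway, had levels of 5.99 to 6.62 (median 6.17) in high WSS and 5.74 to 6.12 (median 5.99) in low WSS. Here 7 low WSS pools lay below every high WSS pool, and the difference was -0.25 (SE 0.04, adjusted p = 0.000143). Rnf43, an E3 ligase that removes Frizzled receptors from the cell surface, ran from 4.30 to 5.86 (median 5.30) in high and from 4.27 to 5.49 (median 4.96) in low WSS. The ranges overlapped almost wholly, but within pairs it was lower in 12 of 14, at -0.22 (SE 0.06, adjusted p = 0.00996), and without the pairing it did not pass (adjusted p = 0.239). Tcf7, a TCF/LEF factor that is also a target of beta-catenin, ran from 5.09 to 5.93 (median 5.38) in high and from 4.97 to 5.48 (median 5.23) in low WSS. It was lower by 0.23 (SE 0.08, adjusted p = 0.0229) in the mean but in only 9 of 14 pairs, with pairs 6 and 7 at -0.96 and -0.64 and the 5 pairs in the other direction at 0.02 to 0.16.

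These 4 genes were put together as known targets of beta-catenin after their values were seen, and not every known target among the members was called. Lef1, a TCF/LEF factor, had a difference of -0.12 (SE 0.09, adjusted p = 0.305), and Lgr5, the R-spondin receptor, one of 0.31 (SE 0.15, adjusted p = 0.11). Nkd2, the paralog of Nkd1, differed by -0.09 (SE 0.09, 95% interval -0.28 to 0.10) and was higher in 7 and lower in 7 pairs. The mRNA of beta-catenin itself was higher in low WSS: Ctnnb1 ran from 9.69 to 10.36 (median 9.99) in high and from 10.03 to 10.38 (median 10.22) in low WSS, a difference of 0.22 (SE 0.05, adjusted p = 0.00099). Of the high WSS pools 7 lay below every low WSS pool, and pair 7 was the only pair in the other direction, by -0.11. These arrays measured mRNA, so neither the amount of beta-catenin protein nor its place in the cell was measured.

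**Figure D2:**
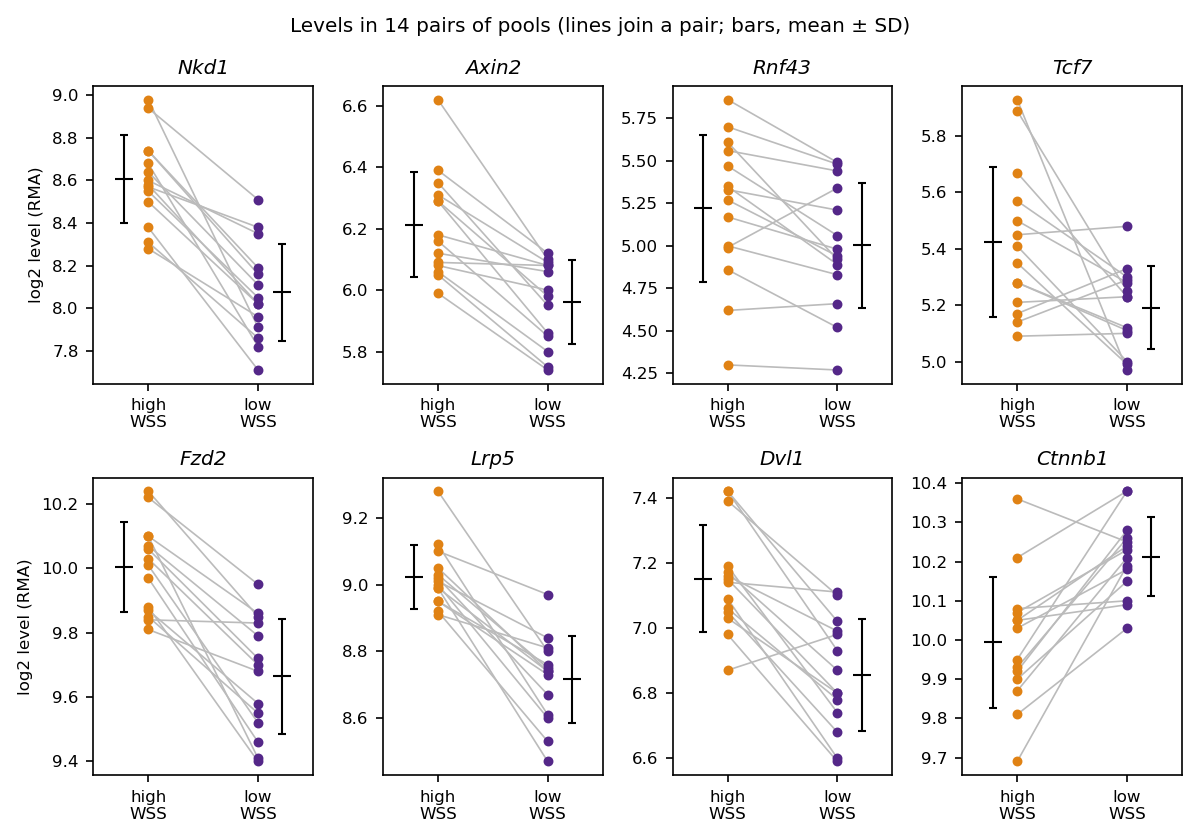
Level (log2, RMA) of 8 Wnt genes in the high WSS (orange) and low WSS (purple) pools, 14 of each, with a line joining each pair and bars at mean ± SD; each panel has its own axis. Nkd1, Axin2, Fzd2 and Lrp5 fall in every pair, Dvl1 falls in 13 and Rnf43 in 12, Tcf7 falls in 9, and Ctnnb1 rises in 13.

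The start regions of the called target genes are shown for their TCF/LEF words, the letters to which TCF/LEF factors are known to bind. The words searched, on both strands, were the word CTTTGAA, the word CTTTGAT, the word CTTTGTA and the word CTTTGTT, in windows from 250 bases before to 50 after the start that RefSeq gives in the build GRCr8. They are printed below in the direction of the gene, with the words in capitals, for Nkd1 (chr19:34722797-34723096, minus strand), Axin2 (chr10:94398535-94398834, plus strand) and Tcf7 (chr10:36954230-36954529, minus strand).
Nkd1: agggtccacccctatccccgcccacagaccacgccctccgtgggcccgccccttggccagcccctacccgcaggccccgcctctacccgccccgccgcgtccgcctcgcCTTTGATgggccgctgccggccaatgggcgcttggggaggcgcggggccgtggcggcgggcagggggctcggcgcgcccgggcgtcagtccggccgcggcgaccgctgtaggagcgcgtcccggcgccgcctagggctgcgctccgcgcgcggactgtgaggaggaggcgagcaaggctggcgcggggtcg
Axin2: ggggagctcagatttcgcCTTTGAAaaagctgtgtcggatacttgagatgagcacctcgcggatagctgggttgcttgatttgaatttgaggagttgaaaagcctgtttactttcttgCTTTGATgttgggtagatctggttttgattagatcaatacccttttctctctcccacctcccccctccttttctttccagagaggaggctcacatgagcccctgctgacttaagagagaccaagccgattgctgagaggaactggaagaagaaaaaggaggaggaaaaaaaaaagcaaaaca
Tcf7: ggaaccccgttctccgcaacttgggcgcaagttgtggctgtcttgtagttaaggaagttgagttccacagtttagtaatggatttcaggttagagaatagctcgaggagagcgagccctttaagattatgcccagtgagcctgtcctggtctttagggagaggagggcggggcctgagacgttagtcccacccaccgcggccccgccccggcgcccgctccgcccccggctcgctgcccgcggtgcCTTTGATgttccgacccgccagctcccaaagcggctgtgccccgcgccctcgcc

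The Nkd1 window held the word CTTTGAT at position -141 from the start, the Tcf7 window held it at -4, and the Axin2 window held CTTTGAA at -232 and CTTTGAT at -132. Rnf43 had none of these letters in its window. Over all members, a window was found for 43 genes, and 5 of them (11.6%) held a word: Nkd1, Axin2, Tcf7, Wnt3 and Wnt8a. The words stood in 17.1% of all 33469 windows and in 11.5% of the 10667 windows of tested genes. These shares count windows. The share of the members counts genes and includes genes under the level filter, such as Wnt3 and Wnt8a. No excess among the members is therefore read from them. The 11 members without a window were Axin1, Fzd2, Fzd6, Lgr5, Lrp5, Lrp6, Rspo2, Rspo4, Wnt10b, Wnt5b and Wnt7b. A match is a description of the letters and no binding was measured.

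Among the ligands, 0 were higher, 2 lower and 8 not called of 10 tested, where 19.7% of all genes were higher and 22% lower, and the median difference was -0.134. Wnt2b, a canonical ligand, had the largest difference of all members. It ran from 5.04 to 6.50 (median 5.63) in high WSS and from 4.50 to 5.40 (median 4.91) in low WSS. The regions overlapped, 9 low WSS pools lay below every high WSS pool, and the difference was -0.74 (SE 0.12, adjusted p = 0.000111) or 1.67-fold. Its size was uneven, from -1.78 in pair 13 to 0.18 in pair 3, the only pair in which the low WSS pool was the higher one. Wnt9a was lower by 0.16 (SE 0.05, adjusted p = 0.0113), in 12 of 14 pairs, from a mean of 6.21 ± 0.15 to 6.04 ± 0.18. Wnt5a, the best known non-canonical ligand, differed by -0.13 (SE 0.07, adjusted p = 0.169). Its close paralog Wnt5b, at -0.14 (SE 0.06, adjusted p = 0.058), and Wnt2, at -0.18 (SE 0.07, adjusted p = 0.0623), lay just outside the threshold and were lower in 11 of 14 pairs each. Wnt9b (-0.15), Wnt11 (-0.13), Wnt7b (-0.03), Wnt1 (-0.01) and Wnt6 (0.00) had adjusted p-values of 0.124 to 0.995. With pairs 4 to 14 alone, Wnt5a (-0.24) and Wnt5b (-0.21) passed the test.

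A further 8 ligands were under the level filter, at mean levels of 3.32 to 3.82: Wnt3, Wnt4, Wnt7a, Wnt8a, Wnt8b, Wnt10a, Wnt10b and Wnt16. The receptors Fzd9 (3.93) and Fzd10 (3.70) were under it as well. In a fit without the filter 0 of these 10 genes passed (limma). The lowest adjusted p was 0.101, for Wnt4, a ligand of both branches, which differed by 0.21 (SE 0.10) and was higher in 10 of 14 pairs.

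Wls, which serves the export of all Wnts, and the non-canonical receptors Ror2 and Ryk were higher in low WSS. Wls ran from 7.94 to 8.26 (median 8.13) in high and from 8.05 to 8.50 (median 8.33) in low WSS. In low WSS 10 pools lay above every high WSS pool, and the difference was 0.18 (SE 0.04, adjusted p = 0.00206). Porcn, the acyltransferase, differed by -0.09 (SE 0.05, adjusted p = 0.157). Ror2, a receptor for Wnt5a, was higher by 0.19 (SE 0.05, adjusted p = 0.00853) in 11 of 14 pairs, from 5.72 ± 0.16 to 5.92 ± 0.18. Ryk, an atypical kinase receptor, was higher by 0.12 (SE 0.05, adjusted p = 0.0393) in 11 of 14 pairs. This call is the least stable of the 18, as it was lost when any of 9 single pairs was left out. Ror1, the paralog of Ror2, differed by 0.10 (SE 0.06, adjusted p = 0.187) and was higher in 8 pairs, and the difference between the paralogs was not tested.

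The canonical co-receptors and the Frizzled receptors did not move together. Lrp5 ran from 8.91 to 9.28 (median 9.00) in high and from 8.47 to 8.97 (median 8.74) in low WSS. All low WSS pools but 1 lay below every high WSS pool, and the difference was -0.31 (SE 0.04, adjusted p = 1.49e-05), in all 14 pairs. Its paralog Lrp6 differed by -0.03 (SE 0.04, 95% interval -0.11 to 0.06), with 7 pairs in each direction. Fzd2, a receptor used in both branches, ran from 9.81 to 10.24 (median 10.02) in high and from 9.40 to 9.95 (median 9.69) in low WSS. In low WSS 10 pools lay below every high WSS pool, at a difference of -0.34 (SE 0.05, adjusted p = 1.88e-05), in all 14 pairs. Fzd4, the Frizzled of endothelial barrier and retinal vessel growth, ran from 9.29 to 10.30 (median 9.66) in high and from 8.39 to 9.98 (median 9.24) in low WSS. The ranges overlapped widely, and it was lower in 13 of 14 pairs by up to 1.03 and higher in pair 7 by 0.31, at -0.42 in the mean (SE 0.08, adjusted p = 0.000496). With Tagln and Cnn1 as covariates the difference of Fzd4 was -0.17 and no longer passed. Fzd5 was the only Frizzled gene that was higher, by 0.17 (SE 0.06, adjusted p = 0.0256) in 12 of 14 pairs, and it did not pass without pair 5, 8 or 13. Fzd6 (0.14), Fzd1 (-0.01) and Fzd8 (-0.02) were not called (adjusted p-values of 0.213 to 0.939).

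Fzd4 and Lrp5 are also the receptor pair of norrin, a growth factor unrelated to the Wnts in sequence that signals through beta-catenin with the help of the tetraspanin Tspan12. The norrin gene Ndp ran from 4.04 to 5.65 (median 4.82) in high and from 5.30 to 6.81 (median 5.79) in low WSS. It was higher in the low WSS pool of all 14 pairs, by 0.56 to 1.98, with a difference of 1.02 (SE 0.08, adjusted p = 8.39e-08) or 2.02-fold. The ligand gene was higher where both receptor genes were lower. Tspan12 was higher by 0.15 (SE 0.04, adjusted p = 0.0102) in 12 of 14 pairs.

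**Figure D3:**
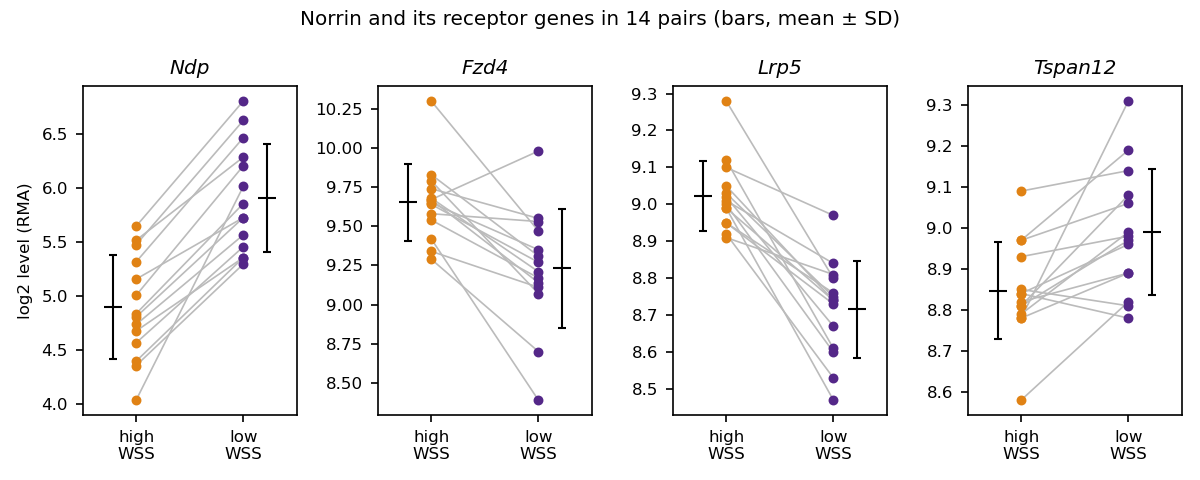
Level (log2, RMA) of the norrin gene Ndp, its receptor genes Fzd4 and Lrp5 and the co-factor gene Tspan12 in 14 pairs of high WSS (orange) and low WSS (purple) pools, with lines joining pairs, bars at mean ± SD and an axis for each panel. Ndp rises in all 14 pairs, Lrp5 falls in all 14 and Fzd4 in 13, and Tspan12 rises in 12.

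R-spondins strengthen Wnt signals by binding Lgr4, Lgr5 or Lgr6 and removing the E3 ligases that clear Frizzled receptors. Of 8 tested genes of this module 0 were higher and 2 lower, Rnf43 and the R-spondin Rspo3, against 19.7% higher and 22% lower over all genes. Rspo3, known for its part in vessel growth, ran from 7.02 to 7.72 (median 7.27) in high and from 6.72 to 7.52 (median 6.97) in low WSS. In low WSS 8 pools lay below every high WSS pool, and the difference was -0.28 (SE 0.07, adjusted p = 0.00387), in 12 of 14 pairs. Rspo2 was lower in 12 of 14 pairs too but did not pass (-0.18, SE 0.08, adjusted p = 0.101). Pair 11, in which it was higher by 0.80, decided this, since without that pair the difference was -0.25 (adjusted p = 0.00236). Rspo1 (-0.13), Rspo4 (-0.10), Lgr4 (0.06) and Lgr6 (0.08) were not called.

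Lgr5, a receptor known as a stem cell marker in gut and skin, had the widest spread of pair differences among the tested members (SD 0.65). It ran from 4.94 to 7.12 (median 5.71) in high and from 5.66 to 6.81 (median 6.01) in low WSS, with an SD of 0.69 and 0.37. The pairs went from -0.78 in pair 7 to 1.32 in pair 2. It was higher in the low WSS pool of 9 pairs and lower in pairs 7, 10, 11, 12 and 13, and it passed when pair 7 (0.40) or pair 12 (0.39) was left out. Nkd2 also varied widely, from 5.94 to 7.92 over all pools, but its 2 pools of a pair lay closer, with an SD of 0.38 for the pair difference against 0.48 and 0.55 for the regions. Rnf43 had the same feature, with an SD of 0.25 for the pair difference against 0.43 and 0.37.

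In the cytoplasm, Dvl1 and Dvl3 were lower and Apc was higher in low WSS. Of the Dishevelled genes, which relay the signal from Frizzled, Dvl1 ran from 6.87 to 7.42 (median 7.15) in high and from 6.59 to 7.11 (median 6.83) in low WSS. With 8 low WSS pools below every high WSS pool, it was lower by 0.30 (SE 0.05, adjusted p = 8.39e-05) in 13 of 14 pairs. Dvl3 was lower by 0.20 (SE 0.05, adjusted p = 0.0052) in 12 of 14 pairs, and Dvl2 differed by 0.04 (SE 0.04, 95% interval -0.06 to 0.13). Apc, the scaffold of the destruction complex, was higher by 0.21 (SE 0.05, adjusted p = 0.00143) in 12 of 14 pairs, running from 7.63 to 8.10 (median 7.81) in high and from 7.84 to 8.24 (median 8.05) in low WSS. Of the high WSS pools 9 lay below every low WSS pool. Apc2 (-0.08, adjusted p = 0.368) and Axin1 (0.01, adjusted p = 0.902) were not called, whereas Axin2, Nkd1 and Ctnnb1 are described above.

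For Tcf7l1, a TCF factor known mainly as a repressor, 3 probe sets disagreed. The brightest (mean level 9.95), which represents the gene, differed by 0.05 (SE 0.04, adjusted p = 0.307). A probe set at 9.16 was lower by 0.26 (SE 0.06, adjusted p = 0.00195) in 12 of 14 pairs, and a probe set at 5.94 differed by -0.14 (SE 0.07, adjusted p = 0.108). No direction is therefore given for Tcf7l1.

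**Figure D4:**
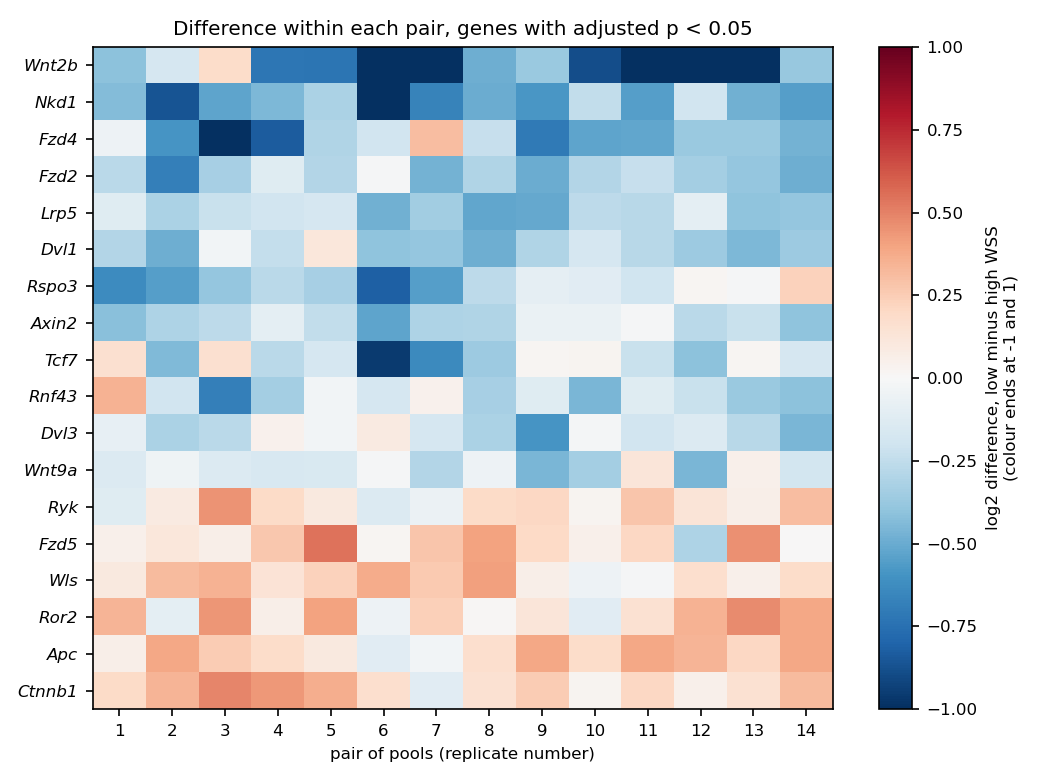
Log2 difference (low minus high WSS, colour) of the 18 called Wnt genes (rows) in each of the 14 pairs (columns), blue where the low WSS pool was lower and red where it was higher; colours end at -1 and 1, and larger differences have the end colour. Nkd1, Fzd2, Lrp5 and Axin2 are blue in every pair, Wnt2b goes beyond -1 in pairs 6, 7, 11, 12 and 13, and pair 7 is the one in which Fzd4 is red and Ctnnb1 blue.

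Genes around the core were described by list, with calls from the same fit and no test of the lists. Of 93 tested genes in 6 lists, 22 were higher and 27 lower (52.7%), against 41.7% of all genes, at a median difference of -0.0611. Among 13 secreted antagonists and their receptors 2 were higher and 3 lower. Sost (sclerostin, which blocks Lrp5 and Lrp6) was higher by 1.92 (SE 0.15, adjusted p = 7.56e-08) and Dkk3, a Dickkopf family protein, by 0.32 (SE 0.04, adjusted p = 2.84e-06), whereas Lrp4, a receptor that anchors sclerostin, was lower by 0.30 (SE 0.05, adjusted p = 7.62e-05). Of 8 surface cofactors 5 were higher and 1 lower, with Ndp first, then Musk, a kinase with a Frizzled-like domain, higher by 0.38 (SE 0.06), and the glypican Gpc3, lower by 0.50 (SE 0.09).

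Inside the cell, the destruction complex list had 5 higher and 2 lower of 19 tested, led by the tankyrase Tnks2, which marks Axin for breakdown (0.18, SE 0.04), the casein kinase Csnk1e (-0.16, SE 0.04) and Dact1, a Dishevelled binder (0.26, SE 0.07). Csnk1a1, the kinase that first marks beta-catenin, was higher by 0.16 (SE 0.04). In the list of nuclear cofactors of beta-catenin 10 were lower, 2 higher and 7 not called of 19, where 22% of all genes were lower and 19.7% higher. The corepressor Tle3 was lower by 0.51 (SE 0.04, adjusted p = 9.47e-08), and Bcl9, which links beta-catenin to Pygopus proteins, by 0.41 (SE 0.05, adjusted p = 7.66e-06). Hdac1, a histone deacetylase, was higher by 0.48 (SE 0.04, adjusted p = 1.78e-07), with no overlap between the regions. Of the other proteins that bind beta-catenin or TCF/LEF factors, Bcl9l (-0.25), Tle5 (-0.21), Cdc73 (-0.21), Crebbp (-0.18), Ep300 (-0.17), Tle2 (-0.16) and Ctnnbip1 (-0.16) were lower and Chd8 (0.14, SE 0.05, adjusted p = 0.0266) was higher, while Tle1 (-0.03), Tle4 (0.06) and Sox17 (0.04) were not called. The lower genes of this list include coactivators (Bcl9, Bcl9l, Crebbp and Ep300) as well as the corepressor Tle3 and its paralog Tle2.

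In the planar cell polarity list, the branch that orders the cytoskeleton, 4 were higher and 6 lower of 20. Over all genes 19.7% were higher and 22% lower. The GTPase Rhoa was higher by 0.22 (SE 0.03), and the cadherin Celsr2 (-0.34, SE 0.05) and the Dishevelled-binding formin Daam1 (-0.39, SE 0.07), were lower. Of 14 further genes known as targets of beta-catenin in other tissues, 4 were higher and 5 lower, with the T-box factor Tbx3 higher (2.14-fold, adjusted p = 1.45e-07) and the secreted Ccn4 (-0.60, SE 0.08) and the factor Twist1 (-0.22, SE 0.05) lower. The targets outside the members did not share 1 direction. With Tagln and Cnn1 as covariates Tnks2 (0.11), Csnk1e (-0.13), Csnk1a1 (0.13), Dact1 (0.26) and Twist1 (-0.18) no longer passed the test. When the probe sets of a gene were averaged, Crebbp (-0.06) did not pass and Ccn4 was lower by 0.27. Rhoa was at 0.14 after a second quantile normalization and Dact1 at 0.16 with pairs 4 to 14 alone, and both still passed.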

How the data were processed

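Total RNA of 28 pools of aortic wall was hybridised to Affymetrix Rat Gene 1.1 ST arrays. The deposited values are log2 levels that the authors made with RMA from the scanner files, with probe sets annotated on the rat build rn4, and no correction for batch is stated. The filter followed the methods in leaving out probe sets that lacked a symbol or averaged under 4, and 13383 were tested. The paper reports a larger count of genes after its own annotation, so the sets are not the same. A gene was represented by its single-symbol probe set with the highest mean level, and a further probe set that carries Lrp5 beside another symbol was not used. Arrays have no depth, and their number limits the precision. Array medians were 4.88 to 5.00 in high WSS and 4.85 to 4.92 in low WSS. The r between arrays was 0.9792 to 0.9965, with no copies among them.

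Low and high WSS were compared with limma 3.58.1 in R 4.3.3, with the pair as a block and Benjamini-Hochberg adjustment over all probe sets tested, after the fit had been tested on simulated data. The methods state that the pools form pairs from the same animals. The labels give only the region and a number, so pools of equal number were taken as a pair, which is an assumption. Deviations of same-numbered pools from their region's mean correlated at -0.0119 to 0.481, over 0.1 in 11 of 14 pairs (not in pairs 1, 2 and 3), against a mean of -0.0173 for other numbers. With the pair as a block, the p-values rest on how the low minus high WSS difference varies between pairs of pools, and not on the spread between animals.

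Every member is named, and those past the threshold with their values. A gene outside the members is named only if it is a marker of the pools' makeup, is among the 3 of its list with the smallest adjusted p, or binds a named member directly, and not every binder is named. Members, lists and tests were chosen with earlier results of these data known. The alternatives were the paired t-test of the methods, no pairing, trend and robust estimation, no filter or a level of at least 6, unannotated probe sets kept, the mean over probe sets, arrays centred or quantile normalized again, Tagln and Cnn1 or the adipocyte list as covariates, pairs 4 to 14 alone, and each pair left out. Their use for the surrounding lists was added after seeing the data.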

Additional observations from a re-analysis of the deposited data

How the results depend on the processing

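Over 26 alternatives, 14 of which left out 1 pair, none of the 18 called genes changed sign. A call was kept by 10 genes in every alternative that tested them. Wnt2b (mean level 5.34) and Ror2 (5.82), which are among these 10, were not tested in the fit with a level of at least 6. With Tagln and Cnn1 as covariates 8 lost it, namely Apc (0.14), Ctnnb1 (0.15), Dvl3 (-0.16), Fzd4 (-0.17), Fzd5 (0.18), Rnf43 (-0.03), Ryk (0.04) and Tcf7 (-0.29). With Wnt2 (-0.29) called in addition, 2 genes were higher and 9 lower, 25.5% of all genes were called, and the median SE of the members was 0.07 in place of 0.0521. The count over the surrounding lists, an alternative chosen after seeing the data, went from 49 to 26. The share over all genes went from 41.7% to 25.5%. Without the pairing (no replicate block) 6 members were higher and 11 lower (38.6%, against 35.7% of all genes), and Rnf43 was the gene lost. Leaving out each pair gave 4 to 7 higher and 12 to 14 lower. This was 36.4% to 45.5% of the members, against 38.3% to 43.1% of all genes. Ryk was lost without pair 2, 3, 4, 5, 8, 9, 11, 12 or 14, without the level filter and with the adipocyte covariate. Of the 26 genes not called, 9 were called in some alternative, among them Wnt11 with the adipocyte covariate (-0.22, adjusted p = 0.0149), Ror1 with pairs 4 to 14 alone (0.17) and Lgr6 with arrays centred (0.12). No level filter gave 5 higher and 12 lower of 54 (31.5%, against 29.8% of all genes). A level of at least 6 gave 4 and 9 of 27 (48.1%, against 49.3% of all genes).

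For 10 genes that were not called the sign changed in some alternative. With arrays centred on their medians the differences were 0.03 for Fzd1, 0.02 for Fzd8, 0.01 for Lrp6, 0.03 for Wnt1, 0.04 for Wnt6 and 0.00 for Wnt7b. Quantile normalization gave 0.03 for Wnt1, 0.05 for Wnt6 and 0.01 for Wnt7b. With Tagln and Cnn1 they were 0.05 for Porcn, 0.02 for Wnt1 and 0.00 for Wnt11, and the mean over probe sets gave -0.12 for Tcf7l1. With the adipocyte covariate they were -0.03 for Axin1, 0.03 for Fzd1, 0.03 for Wnt1 and 0.02 for Wnt6, and with pairs 4 to 14 alone -0.03, 0.06, 0.10 and 0.04. Leaving out 1 pair gave -0.01 to 0.04 for Axin1, -0.03 to 0.03 for Fzd1, -0.04 to 0.03 for Wnt1 and -0.03 to 0.02 for Wnt6. The cause of these changes was not tested. Dim probe sets limit what can be seen for Wnt1, Wnt6, Wnt7b, Wnt11 and Lef1, whose levels lie close to the filter.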
